A study of Mus musculus with 6 samples.

Results

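The genes described here build or work in the cilium, or are mutated in cystic kidney disease. They were chosen by name: probes of the array files whose gene name starts with Ift, Bbs, Dnah, Dnahc or Dnaic and a number, names of the tektins, nephrocystins, polycystins and fibrocystin, the Ttc genes of the cilium, and the listed genes Arl3, Arl6, Arl13b, Invs, Spag6, Spag16, Spag17, Bicc1, Umod and Glis2. The rule found 116 probes for 57 genes, of 41174 probes for 27670 gene names in all. The rule itself uses names and no measured value, though it was written with earlier results of these data known. Kidneys were dissected from CD1 mouse embryos at E13.5 and cultured on filters. Paired kidneys then received Scriptaid or Nullscript for 6 hours, each at 2.0 µg/ml. Scriptaid inhibits histone deacetylases (HDACs), and Nullscript is its inactive structural relative. RNA of both drugs was hybridised together to 2-colour arrays, with the Scriptaid RNA in Cy3 on 3 arrays and in Cy5 on the other 3. By the replicate numbers of the labels, the 6 arrays were taken as 3 biological replicates with the dyes exchanged. The number of embryos behind each replicate was not found in the labels. An explant mixes the cell types of the early kidney, so fewer cells of a type and less RNA per cell cannot be told apart in any value given here.

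A primary cilium is a single antenna of microtubules that most kidney cells carry. Cargo is carried along it by intraflagellar transport (IFT) trains, of which IFT-B complexes are tied mainly to outward and IFT-A complexes to inward movement, while the BBSome ferries membrane proteins and Arl GTPases release or sort lipid-modified cargo. The polycystins form a channel complex in the ciliary membrane of the tubule, the nephrocystins sit near its base, and loss of either gives cystic kidneys. Dynein arms, tektins and the central pair belong to the beating axoneme of motile cilia and sperm tails, which the embryonic mouse kidney is not known for.

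Values are log2 ratios with the Scriptaid-labelled channel over the Nullscript-labelled channel, so a positive value means more signal in the Scriptaid-labelled channel. The direction is not settled by these data. H1f0, Cdkn1a, Gsn and Txnip, known from other cells to rise under HDAC inhibition, had ratios of -1.04 to -0.91, and Ccnd1, Myc, Tyms and Ccnb1, which fall in other cells, had ratios of 0.59 to 1.90. An exchange of the drug names would turn all signs and all counts by direction in the text. Between 91.2% and 96.4% of probes per channel were well above background, and the ratios of the 6 arrays correlated at 0.756 to 0.952 over genes. All 6 nephron progenitor markers (such as Six2 and Wt1), all 6 of the ureteric bud and all 5 of the stroma were well above background on all 6 arrays for both drugs. So were all 8 male germ cell markers, and 24916 genes had such a probe, of 26498 tested. The flag therefore does not show which cell types were present.

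Promoter windows from RefSeq (GRCm38.p6, from 250 bases before to 50 after an annotated start) matched 46 of the 57 genes, with 52 windows. The windows below the next sentences carry letters of the X-box, the element bound by RFX factors, which drive many ciliary genes. The motif searched was GTTGCCA on either strand. It lay in at least 1 window of 7 of the 46 genes (15.2%) and of 1358 of all 27025 genes with a window (5.02%). The 7 genes are Ift88, Ttc26, Bbs1, Tekt1, Nphp4, Dnah10 and Pkd1l2, and the windows of 5 of them that passed the test are printed with the match in capitals, 5′ to 3′ along the gene. In Ift88, Ttc26, Bbs1 and Nphp4 the match began 20, 0, 1 and 1 bases after the annotated start, and in Tekt1 it began 15 bases before it.
Ift88 (chr14:57423821-57424120, plus strand): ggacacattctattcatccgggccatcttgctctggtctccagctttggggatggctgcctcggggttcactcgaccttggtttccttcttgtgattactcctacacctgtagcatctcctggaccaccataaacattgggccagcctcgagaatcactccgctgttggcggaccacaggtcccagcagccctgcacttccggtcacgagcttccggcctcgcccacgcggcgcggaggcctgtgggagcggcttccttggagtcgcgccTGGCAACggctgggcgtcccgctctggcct
Ttc26 (chr6:38381274-38381573, plus strand): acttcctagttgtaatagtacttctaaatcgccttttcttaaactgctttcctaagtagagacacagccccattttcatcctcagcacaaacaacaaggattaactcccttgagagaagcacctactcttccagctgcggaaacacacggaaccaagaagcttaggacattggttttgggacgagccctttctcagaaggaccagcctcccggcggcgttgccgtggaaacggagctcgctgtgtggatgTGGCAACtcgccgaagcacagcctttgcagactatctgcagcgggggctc
Bbs1 (chr19:4906578-4906877, minus strand): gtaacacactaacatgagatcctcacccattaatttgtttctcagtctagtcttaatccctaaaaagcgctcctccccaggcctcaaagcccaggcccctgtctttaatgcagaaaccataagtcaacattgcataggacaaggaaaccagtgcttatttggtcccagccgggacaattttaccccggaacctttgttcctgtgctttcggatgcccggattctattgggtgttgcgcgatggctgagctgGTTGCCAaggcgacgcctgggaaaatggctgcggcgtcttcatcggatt
Nphp4 (chr4:152477892-152478191, plus strand, the last of 3 annotated starts): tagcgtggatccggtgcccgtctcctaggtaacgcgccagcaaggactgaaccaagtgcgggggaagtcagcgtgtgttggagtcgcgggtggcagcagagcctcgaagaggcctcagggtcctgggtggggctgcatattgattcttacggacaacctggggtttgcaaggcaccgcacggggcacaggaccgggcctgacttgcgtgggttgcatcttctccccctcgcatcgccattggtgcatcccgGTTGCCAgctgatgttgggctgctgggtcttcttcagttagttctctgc
Tekt1 (chr11:72361833-72362132, minus strand, the first of 2 annotated starts): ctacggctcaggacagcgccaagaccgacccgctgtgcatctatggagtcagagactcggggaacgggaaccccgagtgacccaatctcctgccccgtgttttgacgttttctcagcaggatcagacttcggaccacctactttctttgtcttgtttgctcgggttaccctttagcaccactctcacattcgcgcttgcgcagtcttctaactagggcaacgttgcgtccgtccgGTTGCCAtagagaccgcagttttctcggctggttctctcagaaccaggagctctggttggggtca

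The next windows belong to the members with the largest ratio in each direction, Pkd2 and Arl13b. Capitals mark the GC box GGGCGG on either strand, the letters bound by Sp factors. The Arl13b window held 3 matches and the Pkd2 window held none. The Pkd2 window, the only 1 available for the gene, lies inside its listed interval (chr5:104453982-104505819). Of the 46 genes 45.7% held the GC box, against 38.2% of all genes with a window. It lay in 5 of 8 genes called higher in the Scriptaid-labelled channel, 9 of 17 in the other and 7 of 20 not called. The CCAAT box, searched as CCAAT, and the TATA box, searched as TATAAA, both on either strand, were added after the values were seen. CCAAT lay in 54.3% of the 46 genes and in 41.1% of all, and in 8 of the 9 IFT genes with a window, and TATAAA in 3 of the 46 (6.52%) and in 15.7% of all. A GTTGCCA followed by AT also holds CCAAT. These matches are letters in a window and show no binding.
Pkd2 (chr5:104459207-104459506, plus strand): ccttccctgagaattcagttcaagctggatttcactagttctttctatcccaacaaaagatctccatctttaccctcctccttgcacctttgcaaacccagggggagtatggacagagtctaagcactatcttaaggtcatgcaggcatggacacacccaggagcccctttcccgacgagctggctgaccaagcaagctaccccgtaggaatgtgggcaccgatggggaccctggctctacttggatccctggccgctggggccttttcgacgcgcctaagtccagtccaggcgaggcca
Arl13b (chr16:62846991-62847290, minus strand): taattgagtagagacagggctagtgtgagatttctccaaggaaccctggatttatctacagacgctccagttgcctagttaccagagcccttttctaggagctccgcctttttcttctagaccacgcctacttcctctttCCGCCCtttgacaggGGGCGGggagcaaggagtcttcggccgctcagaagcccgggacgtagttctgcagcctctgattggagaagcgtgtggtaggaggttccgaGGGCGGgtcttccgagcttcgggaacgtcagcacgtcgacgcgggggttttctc

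Of the 57 genes, 56 had a probe that cleared the background in 3 or more of the 6 arrays for 1 drug or the other and were tested, and 55 were well above background on all 6 arrays for both. Spag17, a central pair protein, was not tested: its probe was above background on no array for Scriptaid and on 1 for Nullscript. Of the 56, 12 were called higher in the Scriptaid-labelled channel and 20 in the Nullscript-labelled channel (limma, adjusted p under 0.05 over 26498 genes). Over all genes tested, 22.5% were called in the first direction, 23.7% in the second and 46.2% in either, against 57.1% of members. The median ratio of the 56 was -0.03, beside -0.01 over all genes. All 32 called members had the same sign in all 3 replicates, and 29 had it on all 6 arrays. Ratios were modest: 6 called members reached 1.5-fold and 1, Pkd2, reached 2-fold. Counted by probe, 51 of 112 (45.5%) were called over the 39406 probes tested, where the share over all probes was 45.2%, so by probe the members' share was near the background. No spot of a member's representing probe was saturated.

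**Figure D1:**
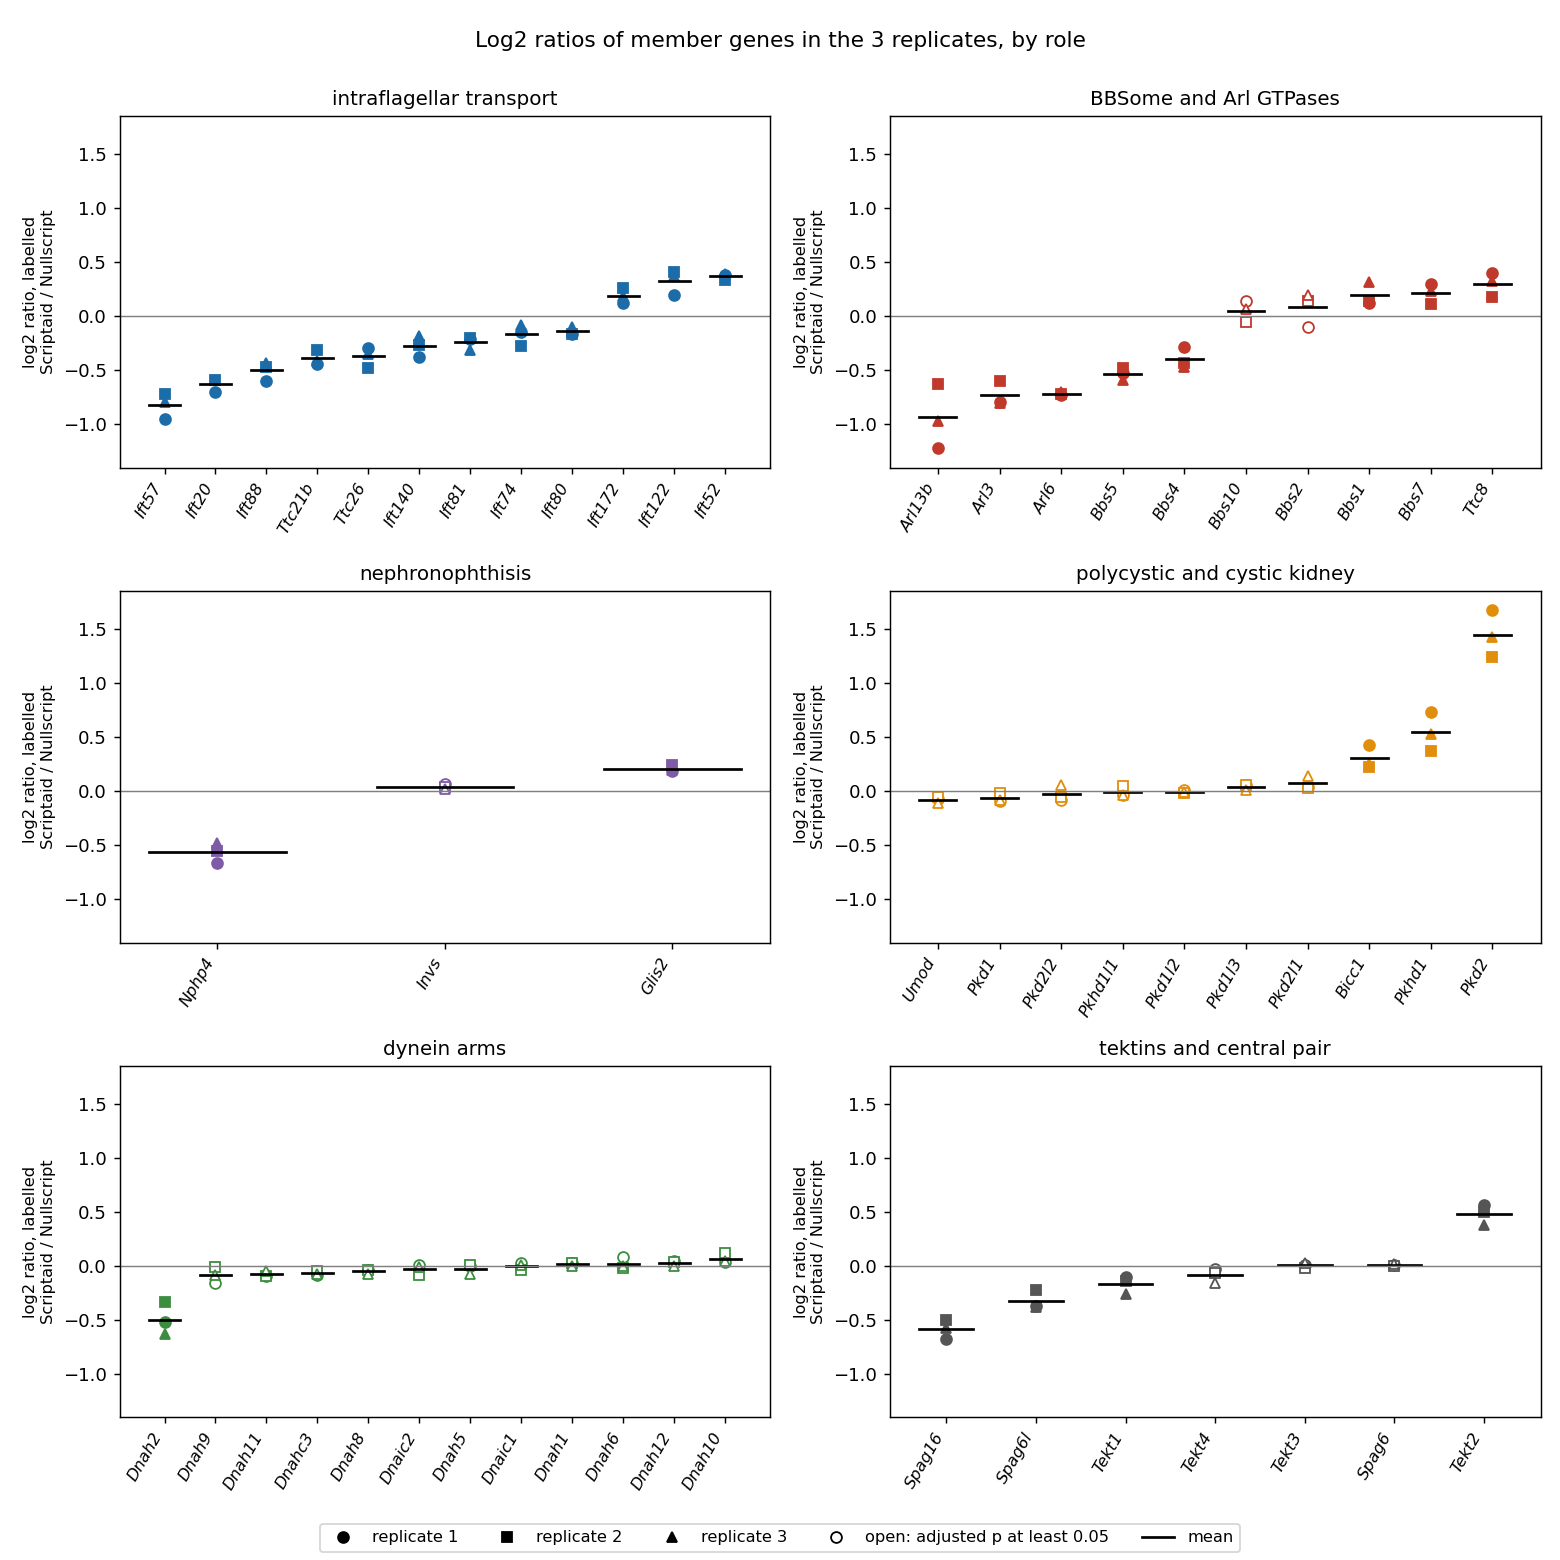
Log2 ratio, Scriptaid-labelled over Nullscript-labelled channel (vertical axis) for 54 tested member genes (horizontal axis), by role; symbols are the 3 replicates, filled where the adjusted p was under 0.05, and bars are means. All 12 IFT genes are filled (9 without replicate 3) and 9 of the 12 lie below 0, whereas 11 of 12 dynein arm genes are open, with means between -0.08 and 0.07.

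All 12 IFT genes found by the name rule passed the test, 9 of them higher in the Nullscript-labelled channel and 3 in the Scriptaid-labelled channel. Their median ratio was -0.26, and 46.2% of all genes tested passed. Without replicate 3, 9 of the 12 were called, and 10 were with median centring in place of loess, with either dye orientation alone, and without replicate 1 or 2. Ift57, an IFT-B subunit, had the largest ratio. Its normalised log2 intensities were 12.53, 12.61 and 12.53 in the Scriptaid-labelled channel and 13.48, 13.33 and 13.33 in the Nullscript-labelled channel of replicates 1, 2 and 3. The channels did not overlap, and the ratio was -0.82 ± 0.12 (SD, n = 3), a 1.77-fold difference with an adjusted p of 0.000334 in limma. Ift20, the IFT-B subunit that also sits at the Golgi, had intensities of 13.53, 13.69 and 13.65 against 14.23, 14.28 and 14.24. Each replicate was lower in the Scriptaid-labelled channel, by -0.70, -0.59 and -0.59 (mean -0.63, SD 0.061, adjusted p = 0.000258 in limma). The gene's other probe gave -0.87 and -0.51 in replicates 1 and 2. It had no value in replicate 3, where it was left out on both arrays because of outlier marks.

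Ift88, the IFT-B subunit known as polaris, whose hypomorphic allele gives mice cystic kidneys, read 9.75, 9.53 and 9.59 in the Scriptaid-labelled channel and 10.35, 9.99 and 10.02 in the other. The groups did not overlap, and the ratio was -0.50 ± 0.088 (SD, n = 3; adjusted p = 0.000742 in limma), a 1.41-fold difference. Its only probe is the one tested. Ttc21b, the IFT-A subunit also called IFT139, had ratios of -0.44, -0.31 and -0.41. Ttc26, an IFT-B subunit, gave -0.29, -0.47 and -0.35. Both genes were lower in the Scriptaid-labelled channel in every replicate, with means of -0.39 (adjusted p = 0.00100) and -0.37 (adjusted p = 0.00216). The 2 dimmer probes of Ttc26 gave -0.07 and -0.02 and did not pass (adjusted p = 0.266 and 0.671 over probes).

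Other IFT subunits differed less. Ift140 (IFT-A) had replicate ratios of -0.38, -0.27 and -0.19, with a mean of -0.28. Ift81 and Ift74, which pair to bind tubulin, had -0.21, -0.20 and -0.31 (mean -0.24) and -0.14, -0.27 and -0.08 (mean -0.17). The ratio of Ift81 was -0.38 over arrays that carried Scriptaid in Cy3 and -0.09 over the others, where it was not called (adjusted p = 0.124). Ift74 was not called under 6 of the alternatives, among them slide as a block (adjusted p = 0.0571) and median centring (-0.07, adjusted p = 0.431). Ift80, an IFT-B subunit mutated in a skeletal ciliopathy, had -0.17, -0.16 and -0.10. Its mean of -0.14 was the smallest difference of any called member, and its channels overlapped. The 3 IFT genes on the opposite side were Ift52, an IFT-B subunit, with 0.38, 0.34 and 0.39 in the replicates (mean 0.37, SD 0.027, adjusted p = 0.000573 in limma), Ift122 (IFT-A) and Ift172 (IFT-B). Ift122 read 12.24, 12.58 and 12.58 in the Scriptaid-labelled channel and 12.04, 12.17 and 12.20 in the other. The channels did not overlap, and its ratio was 0.33 ± 0.11 (SD, n = 3; adjusted p = 0.00473 in limma). That of Ift172 was 0.19 ± 0.067 (SD, n = 3; adjusted p = 0.0109 in limma), but 0.07 and not called over the arrays with Scriptaid in Cy3 (adjusted p = 0.504). The channels of Ift172 overlapped. By complex, 2 of 3 IFT-A subunits and 7 of 9 IFT-B subunits were higher in the Nullscript-labelled channel, so subunits of the same complex lay on either side of 0.

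Among the BBSome and Arl genes, 5 of 10 were higher in the Nullscript-labelled channel and 3 in the other. All 3 Arl GTPases were among the 5, with a median of -0.73. Arl13b, mutated in Joubert syndrome and needed for a normal axoneme, read 12.19, 12.55 and 12.22 in the Scriptaid-labelled channel and 13.40, 13.17 and 13.18 in the Nullscript-labelled channel. The lowest Nullscript-labelled value was above the highest Scriptaid-labelled one, with a ratio of -0.93 ± 0.30 (SD, n = 3), a 1.91-fold difference (adjusted p = 0.00224 in limma). Replicate 2 differed least, at -0.62, and replicate 1 most, at -1.21. The other probes of Arl13b gave -0.86 and -0.87.

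Arl3, which releases lipid-modified cargo inside the cilium, read 13.40, 13.38 and 13.43 against 14.19, 13.98 and 14.23, a ratio of -0.73 ± 0.12 (SD, n = 3; adjusted p = 0.000416 in limma). Arl6, which recruits the BBSome to membranes and is also known as BBS3, varied least, with -0.73, -0.72 and -0.70 in the replicates (mean -0.72, SD 0.014, adjusted p = 0.000147 in limma). Its second probe gave -0.75. For all 3 GTPases the channels did not overlap.

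The 6 BBSome subunits on the array went both ways. Bbs5 and Bbs4 were higher in the Nullscript-labelled channel, at -0.53 ± 0.058 (adjusted p = 0.000363) and -0.40 ± 0.099 (adjusted p = 0.00191; SD, n = 3, limma), with second probes at -0.44 and -0.35. Ttc8 (BBS8), Bbs7 and Bbs1 were higher in the Scriptaid-labelled channel. Ttc8 had replicate ratios of 0.40, 0.18 and 0.33 (mean 0.30, adjusted p = 0.00664 in limma) and Bbs7 0.30, 0.12 and 0.24 (mean 0.22, adjusted p = 0.0129). Bbs1 had 0.12, 0.14 and 0.32 (mean 0.20, SD 0.11, adjusted p = 0.0248), the mean of a dim probe. The channels of Ttc8, Bbs7 and Bbs1 all overlapped. In the BBSome and Arl group, calls toward the Scriptaid-labelled channel fell to 0 without replicate 3 and to 1 with Scriptaid in Cy3 alone. The calls in the other direction stayed at 5 under both. Bbs2 gave -0.09, 0.14 and 0.20 and did not pass (mean 0.08, adjusted p = 0.370). Bbs10, which is not a BBSome subunit but helps its assembly as a chaperonin-like protein, did not pass either (mean 0.05, adjusted p = 0.440).

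**Figure D2:**
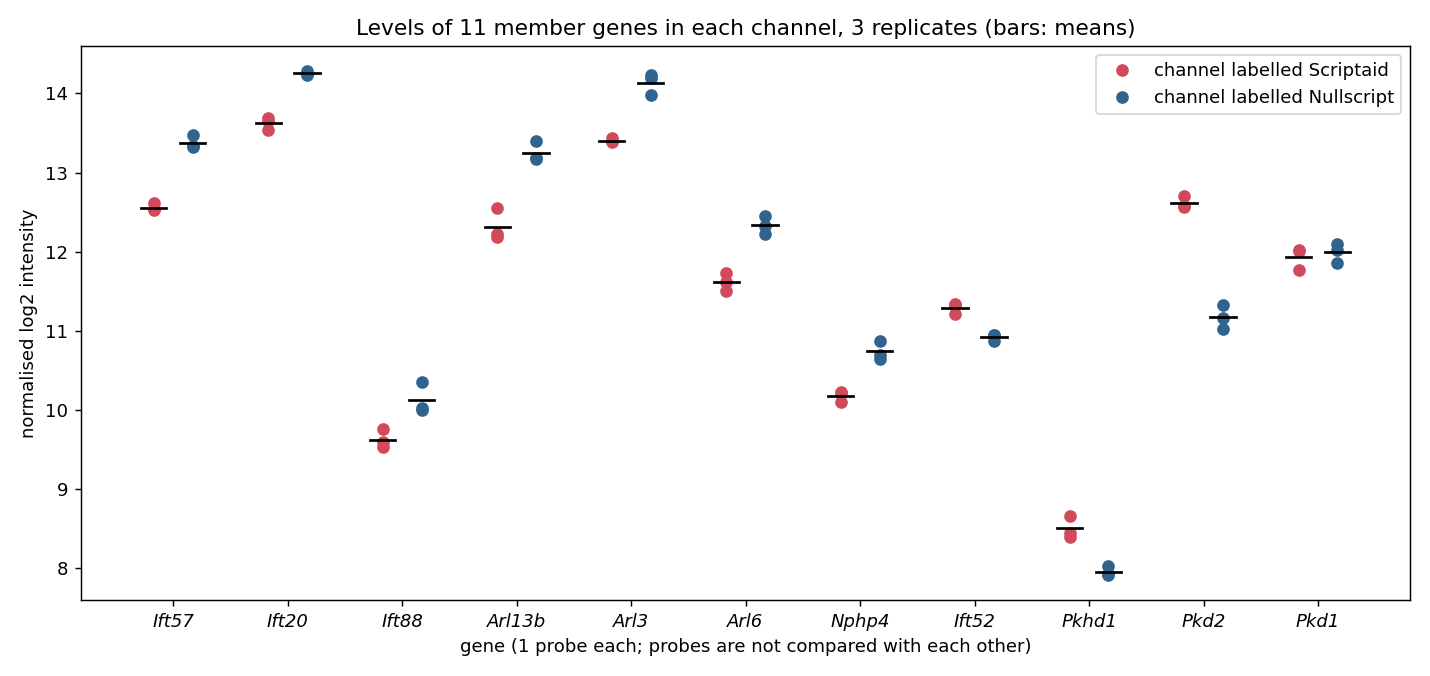
Normalised log2 intensity (vertical axis) of 11 member genes in the channel labelled Scriptaid and the channel labelled Nullscript; points are the 3 replicates and bars their means. Ift57, Ift20, Ift88, Nphp4 and the 3 Arl genes are lower in every Scriptaid-labelled value than in every Nullscript-labelled value, Pkd2, Pkhd1 and Ift52 are higher, and Pkd1 overlaps.

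The nephronophthisis genes, which encode proteins of the ciliary base and inversin compartment and a transcription factor, split evenly, with 2 of 5 in each direction. Nphp4, nephrocystin-4, read 10.21, 10.10 and 10.22 in the Scriptaid-labelled channel and 10.87, 10.65 and 10.70 in the other. Every replicate was lower in the Scriptaid-labelled channel, with a mean ratio of -0.56 ± 0.092 (SD, n = 3; adjusted p = 0.000568 in limma), a 1.48-fold difference.

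Glis2, a zinc finger repressor in the kidney mutated in nephronophthisis, read 13.93, 14.10 and 14.01 in the Scriptaid-labelled channel and 13.74, 13.86 and 13.82 in the other. Its ratios were 0.19, 0.24 and 0.19 (mean 0.21, adjusted p = 0.00367 in limma), and its dimmer probe gave 0.07 and did not pass. Invs, which encodes inversin, gave 0.06, 0.04 and 0.02 and did not pass by its brightest probe (mean 0.04, adjusted p = 0.330). A second probe of Invs did pass, at 0.22 ± 0.10 (SD, n = 3; adjusted p = 0.0164 over probes), and the dimmest gave 0.007.

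In the polycystic and cystic kidney genes, 3 of 10 were higher in the Scriptaid-labelled channel and 0 were higher in the other by limma's adjusted p, with 1 at an unadjusted p under 0.05. Pkd2, which encodes the channel polycystin-2 and is mutated in autosomal dominant polycystic kidney disease, had the largest ratio of all members. It read 12.70, 12.57 and 12.58 in the Scriptaid-labelled channel and 11.02, 11.33 and 11.16 in the Nullscript-labelled channel. The 3 replicates gave 1.68, 1.24 and 1.42, a mean of 1.45 ± 0.22 (SD, n = 3), or 2.73-fold (adjusted p = 0.000286 in limma). A second probe gave 1.09 ± 0.093 (SD, n = 3; adjusted p = 0.000222 over probes), whereas the dimmest of the 3 gave 0.07 and did not pass (adjusted p = 0.119).

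Pkd1, which encodes the partner polycystin-1, was not called. Its intensities were 11.77, 12.01 and 12.02 in the Scriptaid-labelled channel and 11.86, 12.03 and 12.09 in the other, and the ratio was -0.06 ± 0.040 (SD, n = 3; adjusted p = 0.182 in limma). Pkhd1, which encodes fibrocystin and is mutated in recessive polycystic kidney disease, read 8.66, 8.39 and 8.44 against 7.93, 8.02 and 7.91. The Scriptaid-labelled values were all higher, with a mean ratio of 0.55 ± 0.18 (SD, n = 3; adjusted p = 0.00302 in limma). Its other probes gave 0.13 (adjusted p = 0.0172 over probes) and 0.08 (adjusted p = 0.0844), smaller than the brightest.

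Bicc1, an RNA-binding protein whose loss gives cystic kidneys in mice, had replicate ratios of 0.43, 0.23 and 0.25 (mean 0.30, SD 0.11, adjusted p = 0.00611 in limma). All 3 of its probes passed, at 0.24 to 0.37, though the channels of the brightest overlapped. The polycystin relatives Pkd1l2, Pkd1l3, Pkd2l1 and Pkd2l2 and the fibrocystin relative Pkhd1l1 lay between -0.03 and 0.07 and were not called. With median centring Pkd2l1 turned from 0.07 to -0.15 and was called (adjusted p = 0.0191 in limma). Umod, which encodes uromodulin of the thick ascending limb, a segment that forms later in development, gave -0.07, -0.06 and -0.11 and was not called (mean -0.08, adjusted p = 0.0823). The other thick ascending limb markers, Slc12a1 and Kcnj1, were called higher in the Scriptaid-labelled channel, at 0.27 and 0.16. A second probe of Slc12a1 gave -0.06.

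**Figure D3:**
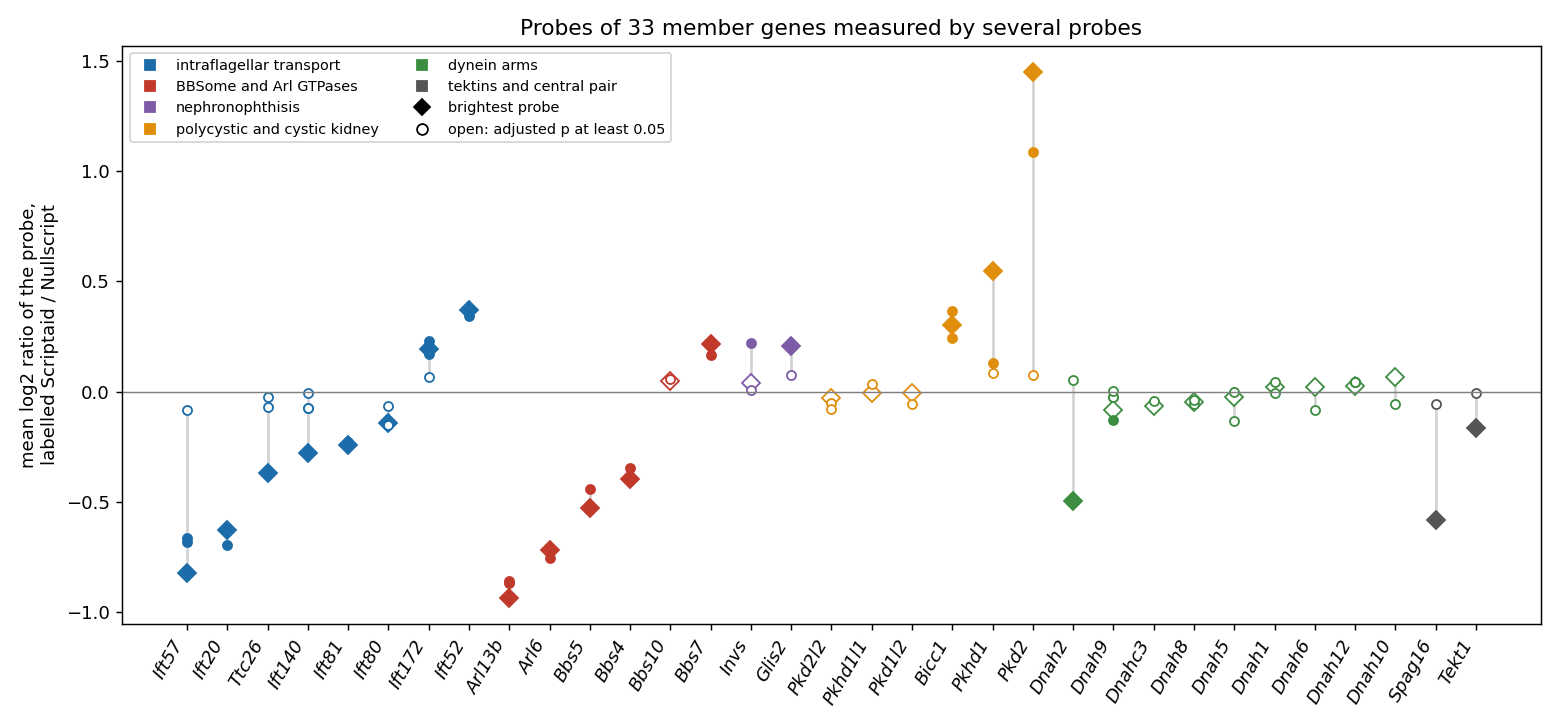
Mean log2 ratio, Scriptaid-labelled over Nullscript-labelled channel (vertical axis) for each tested probe of 33 member genes with several probes (horizontal axis); diamonds are the brightest probe and open symbols had an adjusted p of at least 0.05. Probes of Arl13b, Arl6, Bbs5 and Bicc1 lie together, whereas those of Pkd2 run from 0.07 to 1.45 and those of Ift57 from -0.82 to -0.08.

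Several probes were tested for 34 member genes. In 9 of them all probes were called the same way, in 11 none was called, in 14 some were, and in 0 were probes called in opposite directions, by limma's adjusted p or at an unadjusted p under 0.05. Ift57 had 3 probes at -0.82, -0.68 and -0.66 and a probe near background, above it on 3 and 4 of 6 arrays, at -0.08. Ift140 had its brightest probe at -0.28 and 3 others at -0.07 to -0.01.

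Of 12 dynein arm genes, 1 was called higher in the Nullscript-labelled channel and 0 in the other by limma, with 2 and 0 at an unadjusted p under 0.05. The group holds 10 axonemal heavy chains, the motors of the arms, and the intermediate chains Dnaic1 and Dnaic2. The called gene was Dnah2, an inner arm heavy chain, with -0.52, -0.34 and -0.63 in the replicates (mean -0.50, SD 0.15, adjusted p = 0.00246). It was read by a dim probe, and its other probe gave 0.05 and did not pass (adjusted p = 0.273). Its ratio was -0.93 with the deposited log ratios and -0.22 as the mean of its probes, and it was called under both. The 11 others lay between -0.08 and 0.07. Dnah9, an outer arm heavy chain, gave -0.16, -0.01 and -0.08 (mean -0.08, adjusted p = 0.154). Of its 4 other probes, a dim one was called, at -0.11, -0.17 and -0.11 (mean -0.13, adjusted p = 0.0235 over probes). Dnah11, another outer arm chain, gave -0.09, -0.09 and -0.05 (mean -0.08, adjusted p = 0.0906), and Dnaic1, an outer arm intermediate chain, gave 0.02, -0.04 and 0.01. Dnah5 and Dnah8 had the brightest probes of the group. Dnah5, an outer arm heavy chain often mutated in primary ciliary dyskinesia, read 10.56, 10.65 and 10.97 in the Scriptaid-labelled channel and 10.56, 10.65 and 11.04 in the other (mean ratio -0.02, adjusted p = 0.602 in limma). Dnah8, a heavy chain of sperm tails, read 10.37, 10.41 and 10.72 against 10.40, 10.44 and 10.79 (mean ratio -0.05, adjusted p = 0.232). In both genes the channels overlapped.

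Brightness moved with the share of calls. Over all genes in 4 equal classes of probe brightness, 19.7%, 38.1%, 55.8% and 71.3% were called from the dimmest to the brightest. The dynein arm genes fell 3, 4, 5 and 0 into these classes, and 8 of 12 IFT genes fell into the brightest. In class 3, where 55.8% of all genes were called, 0 of 5 dynein arm genes were called by limma's adjusted p, the called one, Dnah2, lying in the dimmest class. The part of brightness in the difference between the groups was not tested.

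**Figure D4:**
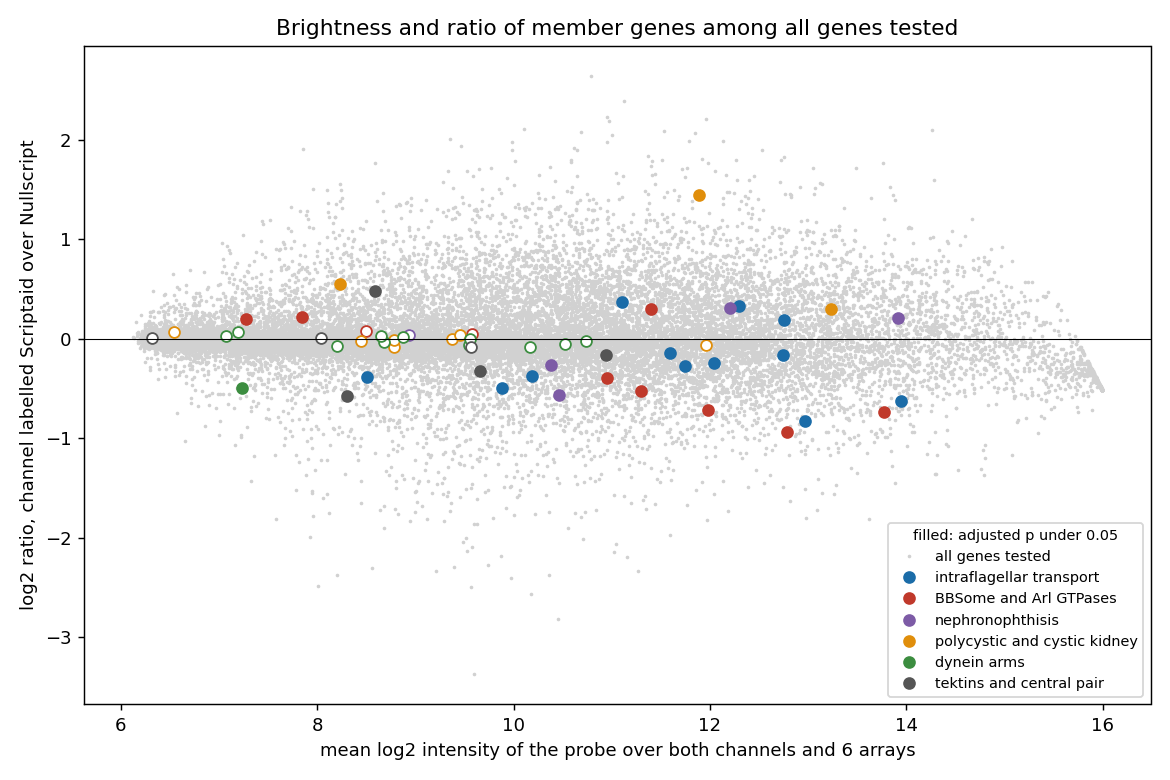
Log2 ratio, Scriptaid-labelled over Nullscript-labelled channel (vertical axis) against mean log2 intensity of the representing probe (horizontal axis) for all 26498 genes tested (grey) and the 56 tested members (coloured by role, filled where called). Called members lie toward the right, and 17 of the 18 members in the brightest of 4 classes were called.

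The tektins and central pair genes had 3 of 7 tested called higher in the Nullscript-labelled channel and 1 in the other. Spag16, a central pair protein, read 7.89, 8.15 and 8.01 in the Scriptaid-labelled channel and 8.57, 8.65 and 8.58 in the other (ratio -0.58 ± 0.090, SD, n = 3; adjusted p = 0.000496 in limma). The channels did not overlap. A dimmer probe of Spag16 gave -0.06 and did not pass. Spag6l, the central pair protein that the array file names Spag6, gave -0.37, -0.22 and -0.38 (mean -0.32, adjusted p = 0.00300), and its channels overlapped. Its close relative, also filed as Spag6, gave 0.01 from a probe near background, and the values of these near-identical copies are uncertain.

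Tekt2, a filament protein of doublet microtubules, was the exception to the direction of its group. It read 8.91, 8.90 and 8.68 in the Scriptaid-labelled channel and 8.34, 8.40 and 8.30 in the other, a ratio of 0.48 ± 0.092 (SD, n = 3; adjusted p = 0.000871 in limma). Tekt1 gave -0.10, -0.14 and -0.26 (mean -0.16, adjusted p = 0.0251), and its second probe gave -0.01. Tekt3 and Tekt4 were not called, at 0.01 and -0.08.

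Cilium genes outside the name rule were described from lists written down for this purpose. Each list is to be read against the shares over all genes tested, 23.7% called higher in the Nullscript-labelled channel and 22.5% in the other. In the motile cilium list, 20 of 27 tested genes were higher in the Nullscript-labelled channel and 0 in the other by limma's adjusted p, with 21 and 1 at an unadjusted p under 0.05. Their median was -0.28. The largest were Nme5, a radial spoke-associated kinase-like protein, at -0.996, Zmynd10, a dynein arm assembly factor, at -0.98 and Tppp3, a tubulin-binding protein, at -0.93. Of the 10 dynein heavy chains among the members, 1 was called. Foxj1, the master regulator of motile cilium genes, had -1.54 ± 0.12 (SD, n = 3; adjusted p = 0.000137 in limma), whereas Rfx3, another ciliary regulator, had 0.11 and was not called (adjusted p = 0.0586).

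Beside the motile genes, markers of cell types that carry such cilia or axonemes were read. Of 7 multiciliated cell markers 4 were tested, with 2 called higher in the Nullscript-labelled channel (Foxj1 and Ccno, at -1.54 and -1.65) and 1, Myb, in the other (0.19). Their mean log2 intensity ran from 8.83 to 8.94 in the Scriptaid-labelled channel and from 9.67 to 9.71 in the other. All 4 were well above background. Of 8 male germ cell markers 1 was called, Ddx4 at -0.39, with mean intensities of 8.36 to 8.46 and 8.41 to 8.46. Neuron markers were higher in the Nullscript-labelled channel in 4 of 5, led by Nefm (-1.33) and Stmn2 (-1.16), with means of 9.20 to 9.60 and 9.86 to 10.3. Second probes of Nefm and Stmn2 gave -0.14 and -0.19. Elavl3, the neuron marker not called, had a second probe at -2.39. Stroma markers were called higher in the Scriptaid-labelled channel in 4 of 5 and lower there in 1, with means of 13.7 and 12.7 to 12.9. Nephron progenitor markers were higher there in 5 of 6 (11.2 to 11.3 against 10.6) and endothelial markers in 4 of 5 (10.5 against 9.87 to 10.02). Red blood cell markers were higher in the Nullscript-labelled channel in 3 of 5, with means of 11.7 to 11.9 and 11.9 to 12.1. Of 6 ureteric bud markers, 3 were higher in the Scriptaid-labelled channel and 1 in the other, and of 4 macrophage markers 1 was higher in each. Their part in the member ratios was not tested.

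The motor list, with kinesin-2, dynein-2 and further IFT genes, had 8 of 15 higher in the Nullscript-labelled channel and 3 in the other, with a median of -0.14. Wdr35 (IFT121, an IFT-A subunit) stood at -0.90, Hspb11 (IFT25) at -0.51 and Kif3a, a kinesin-2 motor subunit, at -0.44. Second probes of Wdr35 and Hspb11 gave -0.71 and 0.02. Cluap1, a further IFT-B gene of this list, had -0.05 and was not called (adjusted p = 0.209 in limma). The transition zone list, which covers the gate at the ciliary base, had 7 of 22 in each direction and a median of -0.01. Its largest were Tmem17 (1.39), Cc2d2a (1.31) and Ahi1 (-1.02), all linked to the gate or to Joubert syndrome. A second probe of Tmem17 gave -0.13, and the other probes of Ahi1 gave -0.68 and -0.07. Membrane and trafficking genes had 5 of 15 higher in the Nullscript-labelled channel and 4 in the other, with Cys1, whose loss gives the cpk cystic mouse, at 1.05, Mal at 0.66 and Ehd1 at -0.61.

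The ciliary transcription factors had 4 of 9 higher in the Scriptaid-labelled channel and 2 in the other, with Rfx1 at 0.58. A second probe of Rfx1 had a ratio of 0. The centriole list had 7 and 5 of 19, led by Pcnt (1.20) and Cetn3 (1.19). The disassembly list had 2 and 4 of 10, with Plk1 at 0.83, Aurka, the kinase that starts cilium resorption, at 0.38 and Hdac6, a deacetylase that acts on tubulin, at 0.01 and not called (adjusted p = 0.925). The modifier list had 5 and 6 of 17, with Cftr at 0.50 and Tsc2 at -0.48.

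**Figure D5:**
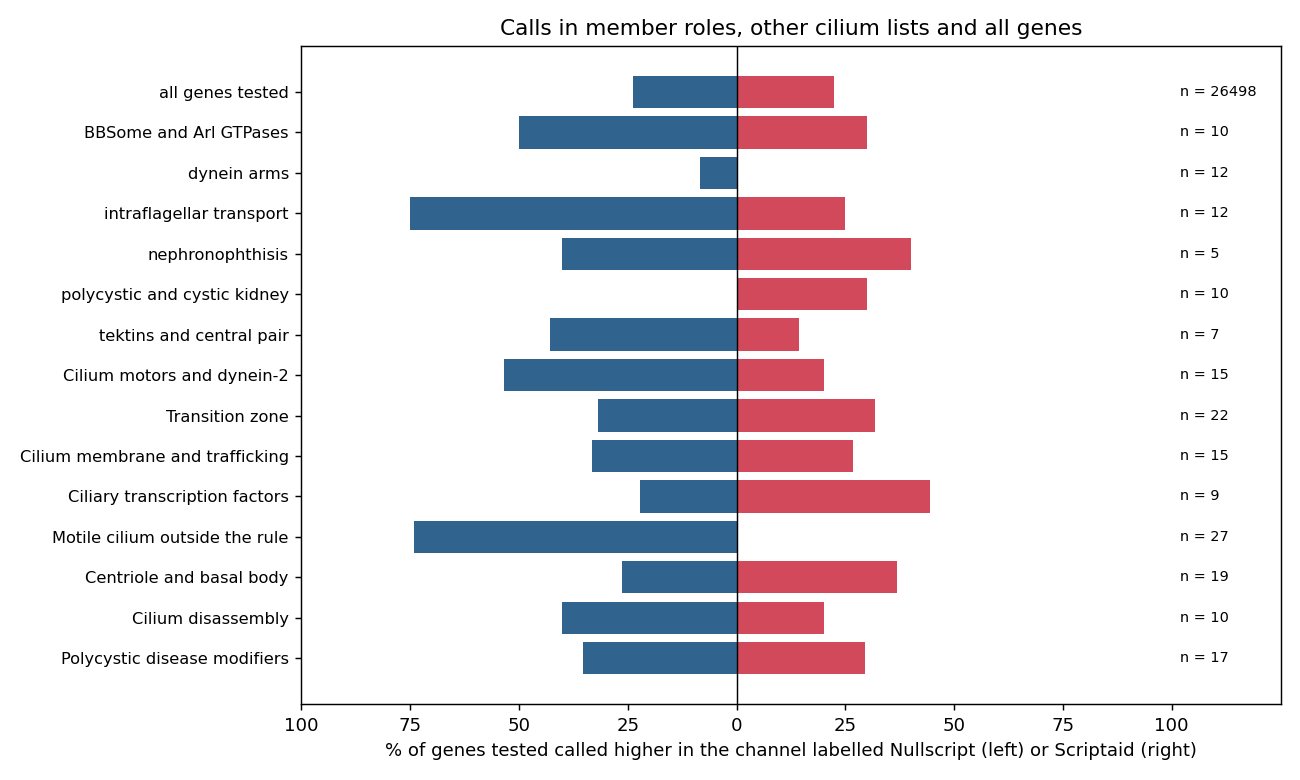
Share of tested genes called higher in the channel labelled Nullscript (bars to the left) or Scriptaid (bars to the right), in percent, for the member roles, the other cilium lists and all genes; n is the number tested. IFT and motile cilium lists reach farthest to the left, with 9 of 12 and 20 of 27 (7 and 14 without replicate 3), and all genes reach 23.7% and 22.5%.

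Dye effects were called in 1438 of 26499 genes by limma and in 0 of 56 members, of which 12 had an unadjusted p under 0.05. The largest dye effect of a called member was 0.42 for Pkd2, whose ratio was 1.24 over arrays that carried Scriptaid in Cy3 and 1.66 over those of the opposite orientation. Slides followed the replicates, with replicates 1 and 2 on the first slide and replicate 3 on the second, and every replicate held both drugs. Call counts of members with each replicate left out ranged from 8 to 13 higher in the Scriptaid-labelled channel and from 16 to 18 in the other. Without replicate 3, Bbs1, Bbs7, Ift172, Ift74, Ift80, Tekt1 and Ttc8 were among the members no longer called. All 32 called members had the same sign in all 3 replicates, so leaving 1 out could not change their signs.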

How the data were processed

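The deposited files are scanner output of 6 Agilent 2-colour arrays, made with Feature Extraction 9.1.3.1 per the file headers, with 1 file per array. They give spot and background intensities of each dye, as deposited and not normalized, and log10 ratios of Cy5 over Cy3 after the software's background subtraction and dye normalization, per the file headers. The number of arrays limits the precision. The p-values rest on the spread between 3 replicates as the labels pair the arrays, with the variance moderated over all genes by limma.

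In limma 3.58.1 (R 4.3.3), mean intensities were background-corrected by normexp (offset 50) and normalized by loess within arrays, with control spots at weight 0. Spots marked as outliers were left out and saturated spots kept. Spots of a probe were averaged, and ratios were turned by the labels' dye fields to Scriptaid over Nullscript. Where the design text counts 4 arrays with 2 swapped, each array's own dye fields were used instead. Both arrays of a replicate, which the labels pair, were averaged. The 3 means were tested against 0 with lmFit and eBayes over all genes, with Benjamini-Hochberg adjustment at 0.05. Deviations of the arrays that share a replicate number correlated with r of 0.607, 0.152 and -0.0275 in replicates 1, 2 and 3. Between replicates 2 and 3, arrays of opposite dye orientation correlated at 0.178 and 0.207. The deviations thus bear out the pairing of the labels for replicate 1 but not for replicates 2 and 3. A probe was tested if it cleared the scanner's background in 3 or more of the 6 arrays for 1 drug or the other. The brightest probe stood for its gene. Levels per channel are loess and Aquantile normalized. Overlap of the channels is given for members only, with no share over all genes beside it. The series value table equals the turned deposited log10 ratios of the scanner files within 4.82e-06. Its column medians lie between -0.0112 and -0.00298.

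Of the 116 member probes, 68 were named through an accession, 23 by symbol, 22 by an older symbol and 3 by the file's own name. In total, 6 probes outside the rule share a name with 4 members and were not counted. Replicate values were given for members that a rule picked by role, size of ratio and brightness and for a set of well-known genes, and further lists were named by their largest called genes. Gene members, lists, markers and the rule were chosen with earlier results of these data known. Of the 31 genes in the motile list 4 were not matched. Promoter motifs were searched by letters on both strands, and the CCAAT and TATA boxes were added later. Some members and list genes are counted but not reported by name here. The test was also run on simulated independent replicates with few changed genes and no dye effects, with the outcome not given here. That setting differs from these data, so the run does not show how the test behaves in them.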

Additional observations from a re-analysis of the deposited data

Results flagged for a closer look

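In 2 member genes every array with Scriptaid labelled in Cy3 gave a negative ratio and every array with Scriptaid labelled in Cy5 a positive one. Dnah5, an outer arm dynein heavy chain, had means of -0.08 and 0.04, a difference between the dye orientations of 0.12 (adjusted p = 0.276 in limma's fit with a dye term). Pkd1l2, a polycystin-1 relative, had means of -0.15 and 0.14, a difference of 0.29 (adjusted p = 0.0559). Neither difference passed the test, and neither gene was called in the average over both orientations.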

How the results depend on the processing

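No called member changed sign under the alternatives run. Leaving out a replicate could not have changed one, because each called member had the same sign in all 3 replicates. Spag6, which was not called at 0.01, turned to -0.24 (adjusted p = 0.00635 in limma) with median centring in place of loess, and Pkd2l1 from 0.07 to -0.15 (adjusted p = 0.0191). Dnah2 ranged from -0.93 with the deposited log ratios to -0.22 as the mean of its probes, called throughout. Averaging probes also shrank Pkd2 to 0.87, Pkhd1 to 0.25 and Spag16 to -0.32, all still called. Higher and lower member counts were 12 and 20. They were 11 and 19 with median centring, 9 and 19 with Scriptaid labelled in Cy3 alone, 12 and 18 in Cy5 alone, 12 and 19 with slide as a block, and 12 and 21 with the deposited log ratios. The fit of 6 arrays with a dye term and the replicate block gave 12 and 20 members and 6298 and 6547 of all genes, with the calls of all 32 called members kept and none gained. Leaving out a replicate gave 8 to 13 and 16 to 18 members, and 4328 to 5695 and 4001 to 5699 of all genes. The lowest counts of members and of all genes came without replicate 3, where 31.4% of all genes were called. Calls were lost most often by Ift74, Tekt1 (6 alternatives each) and Ift80 (5), all with small ratios. Spag17 lay near background and was tested only with no filter on dim probes, where it was not called.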
